A study of Mus musculus with 1 sample.

Results

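The genes examined here encode intermediate filament proteins and nuclear lamins. They were taken as the rows whose gene symbol was Vim, Gfap, Nes, Synm, Des, Nefl, Nefm, Lmna, Lmnb1 or Lmnb2, and all 10 were found, each in 1 row, among 23238 gene symbols. The rule used the gene symbols and no measured value, but the members were chosen with earlier results of these data known. Of the 10 genes, 7 encode filament proteins of the cytoplasm and 3 encode lamins.

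The library came from primary mixed glia of the ventral midbrain (VM) of ICR(CD-1) outbred mice, aged 5 days after birth, and was labelled as control. The study compared such cultures, given vehicle (DMSO), with glia given GSK650394, an inhibitor of the kinase SGK1, and treated glia were not analysed here. The labels do not state how many pups were pooled, nor whether the control culture also received a toxin. With 1 library there is no replicate, no contrast between groups and no statistical test, and each value below describes this library alone.

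Intermediate filaments are rope-like polymers that give cells mechanical strength, and their genes are used in a cell-type-specific way. Type III proteins (vimentin, GFAP, desmin) can build filaments on their own, whereas nestin and synemin need a partner such as vimentin, and neurofilament proteins fill axons of neurons. Lamins are the nuclear branch of the family and line the inner face of the nuclear envelope. In astrocytes the filaments contain GFAP together with vimentin, and nestin is present in immature and reactive cells.

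The deposited number for each gene is called its value here. It is a read count normalised by the authors, and all values summed to 27569507. A longer transcript yields more reads, so genes were compared on a second scale, called the level, which is the value per kilobase (kb) of annotated exon, scaled so that the levels of all rows with a known length sum to 1000000. Exon length is the union of all annotated exons unless another definition is named. An order that turns with another definition is given as such for the members, but not for marker genes among themselves. The shortest transcript annotated as coding can be partial. For Vim and Lmna it is shorter than the coding sequence of the RefSeq-linked mRNA, of 1398 and 1995 bases. Results with that definition are therefore given as an extreme. The median level of detected genes (value of 10 or more) was 9.67. Fewer cells of a type and less RNA per cell cannot be told apart in such a bulk library.

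The cell types in the library were examined with marker genes, none of which tests the brain region. The paper describes its VM-glial cultures as mainly GFAP-positive astrocytes, with fewer Iba1-positive microglia. Marker levels do not measure shares of cells. All 8 astrocyte markers were detected, at levels of 168 (Aldoc), 77.8 (Sox9), 76.5 (Aqp4), 52.7 (Aldh1l1), 38.6 (Gja1), 38.4 (S100b), 20.5 (Slc1a3) and 13.4 (Slc1a2). All 5 microglial markers were detected as well, with C1qa at 2961, Csf1r at 514, Aif1 at 224, Cx3cr1 at 221 and P2ry12 at 45.2. Of the oligodendrocyte markers, the myelin gene Mbp stood at a level of 122, but Mog at 7.48 and the transcription factor Sox10 at 1.49, below the median of detected genes. The endothelial markers Kdr, Cdh5 and Pecam1 lay at 1.24, 0.966 and 0.500. The smooth muscle and pericyte markers ran from Acta2 at 1139 and Tagln at 559 through Cnn1 at 52.1, Pdgfrb at 19.8 and Myh11 at 3.53 to Des at 0.251. The library is therefore a mixture, and no member can be assigned to one cell type from it.

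The filament genes are close relatives, and a read that matched several of them could be counted for the wrong gene. Their annotated mRNAs were therefore compared. The longest run without a difference between mRNAs was 20 bases for Vim and Gfap and 18 for Vim and Des. None of the 50-base words of the Vim, Gfap, Nes, Nefm, Lmna or Lmnb1 mRNA occurred in a transcript of another annotated gene. The closest pair among the lamins was Lmna and Lmnb2, with 90 of 100 bases alike in their best stretch and a longest exact run of 30. For Lmnb2, 0.151% of 50-base words were also found in the annotated gene Gm21009. The share was 5.81% for Des, all in Gm15179, and 4.70% for Synm, in 2 genes led by Gm45102. The read length was not stated in the sources used here.

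All 10 members were detected, against 67.2% of all rows, and 8 of them had a value of 100 or more. Their values ran from 10 (Des) to 218802 (Vim), with a median of 1122, compared with 469 for detected genes. Together they held 0.946% of the sum of all values, but without Vim only 0.153%. The median of their levels was 32.9.

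**Figure D1:**
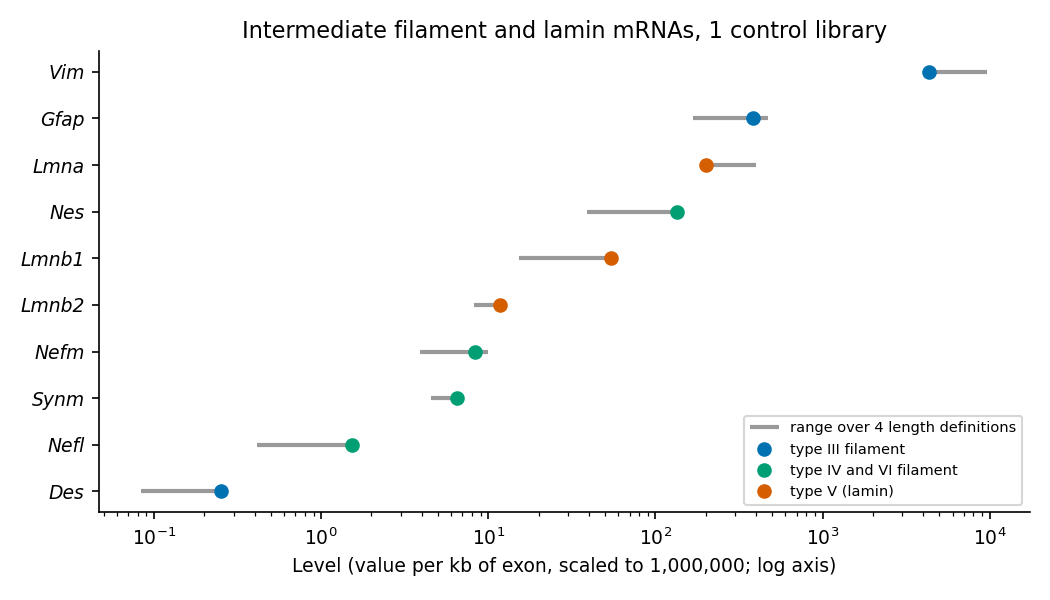
Level of each member in the control library on a log axis, as value per kb of exon scaled to a sum of 1000000; points use the union of annotated exons and grey bars span 4 definitions of gene length, with colours for the class of filament protein. Vim stands at 4355 and Des at 0.251, with the other 8 genes between them. The grey bars are not error bars, and for Vim and Lmna their upper end comes from a partial transcript.

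Vim was by far the most abundant member. Vimentin is the filament protein of mesenchymal cells, microglia, immature glia and cultured astrocytes. Its value was 218802, rank 7 of 23282 rows, and its level was 4355, above 99.9% of detected genes. Vim occupies bases 13573927 to 13582826 of chromosome 2 on the plus strand, with an mRNA of 2193 bases in 9 exons. The annotated exon union is longer, at 4.74 kb, and with the length of the RefSeq-linked mRNA the level was 6443. No exon of another annotated gene overlapped it.

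Gfap, the classical astrocyte marker, was second. Its value was 17222 (rank 171) and its level 385, above 97.6% of detected genes. It lies on chromosome 11 (102887336 to 102900912, minus strand). Vim exceeded Gfap 11.3-fold in level and 15.3-fold with lengths of RefSeq-linked mRNAs. The ratio of 57.5 with the shortest coding transcripts rests on a partial Vim transcript. Gfap lay above all 8 astrocyte markers by value and by level with the exon union, the longest transcript and the RefSeq-linked transcript. With the shortest coding transcript Gfap stood at 169, below Gja1 (593) and Aqp4 (284). Those Gja1 and Aqp4 transcripts are far shorter than the RefSeq-linked mRNAs, of 3.07 and 5.05 kb. The microglial markers C1qa (2961) and Csf1r (514) lay above Gfap and below Vim. So did the smooth muscle markers Acta2 (1139) and Tagln (559) in level, but by value Tagln (11771) lay below Gfap.

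Des was the lowest member. Desmin is the type III filament protein of muscle cells. Its value of 10 was just at the detection minimum, and its level was 0.251, above 1.63% of detected genes. It lies on chromosome 1 (75360329 to 75368579, plus strand) and overlaps an antisense transcript, Gm15179, by 220 exon bases, which was listed at 0.

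The value of Des contrasted with those of other smooth muscle genes. Acta2, smooth muscle α-actin, had a value of 26499, and Tagln, an actin-binding protein of smooth muscle, 11771. Cnn1 (calponin) was at 1509, Pdgfrb, the pericyte receptor, at 1150, and Myh11, smooth muscle myosin, at 284, so Des was the lowest of these 6 markers. Genes of striated muscle were low too, with Myod1 at 5, Ckm at 1 and Myog at 0, while Tnnt2 was at 80 and Actn2 at 21. Vim exceeded Des 17318-fold in level and 30211-fold with RefSeq-linked lengths, ratios that rest on a Des value at the detection minimum. The ratio of 115424 with the shortest coding transcripts rests on a partial Vim transcript as well.

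Nestin is the filament protein of neural stem cells and of reactive or immature astrocytes. Nes had a value of 9126 (rank 437) and a level of 134, above 93.5% of detected genes. The gene lies on chromosome 3 (87971078 to 87980451, plus strand) and has a long mRNA of 6126 bases in 4 exons. Gfap exceeded Nes 1.89-fold in value, 2.87-fold in level and 4.37-fold with RefSeq-linked lengths. Vim exceeded Nes 32.4-fold in level and 67.0-fold with RefSeq-linked lengths. The ratio of 249 with the shortest coding transcripts again rests on a partial Vim transcript.

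Other genes of neural stem cells did not share one level. Fabp7, a fatty acid binding protein of radial glia, stood at 251 and Sox2, a transcription factor of stem cells and astrocytes, at 58.2. Prom1 was at a level of 6.67 and Pax6 at 2.85. Hes5, a Notch target of stem cells, had a value of 5, which is under the detection minimum. Nes lay between Sox2 and Fabp7 in level under each definition of length, but by value Nes (9126) lay above Fabp7 (3322).

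Synemin links vimentin and desmin filaments to anchoring sites. Synm had a value of 546 but, with the longest exon union among the members at 7.93 kb, a level of only 6.50, above 41.1% of detected genes. It lies on chromosome 7 (67730160 to 67759742, minus strand). Its exons overlap Ttc23, which had a value of 112, and Gm45102, both on the opposite strand, by 84 and 426 bases. Nes exceeded Synm 20.7-fold in level, and 7.57-fold with the shortest coding transcripts.

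The neurofilament genes were at or below the middle of detected genes. Nefm, the medium chain, had a value of 508 and a level of 8.29, above 46.6% of detected genes. Nefl, the light chain and core of the neurofilament, had a value of 55 and a level of 1.54, above 16.8%. The ratio of Nefm to Nefl was 5.40 in level and 9.24 in value. The heavy chain Nefh, which is no member, had a value of 4, and internexin (Ina), another neuronal filament gene, 12.

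Nefl and Nefm are neighbours on chromosome 14 and are transcribed from opposite strands. GENCODE lists Nefl at 68083863 to 68089095 and Nefm at 68082590 to 68124846. An extended Nefm transcript covers 1108 exon bases of Nefl, and 31.8% of the 50-base words of Nefl occur there in reverse complement. The RefSeq table places Nefm at 68119545 to 68125004, apart from Nefl, and the RefSeq-linked Nefm mRNA shares 0 bases with it. RefSeq-linked lengths gave a Nefm to Nefl ratio of 9.36.

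Neuronal markers were uneven in the same library. Stmn2, a tubulin-binding protein of growing neurites, had a value of 3802, Map2 868 and Tubb3 124. Snap25 was at 86 and Rbfox3, which marks mature neurons, at 20, while the synaptic gene Syt1 was at 6. The order of neurofilament genes among these markers turned with the length. Nefm (8.29) lay above Map2 (4.98) in level, but below it by value and with the longest transcript (10.0 against 10.1). It was also below with the shortest coding one (3.88 against 40.5), which for Map2 is far shorter than the RefSeq-linked mRNA of 6.26 kb. Nefl (1.54) lay above Snap25 (1.20) with the exon union only, and below it by value and under the other 3 definitions, for example at 1.05 against 2.62 with RefSeq-linked lengths. The part of residual neurons in the Nefl and Nefm values was not tested.

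**Figure D2:**
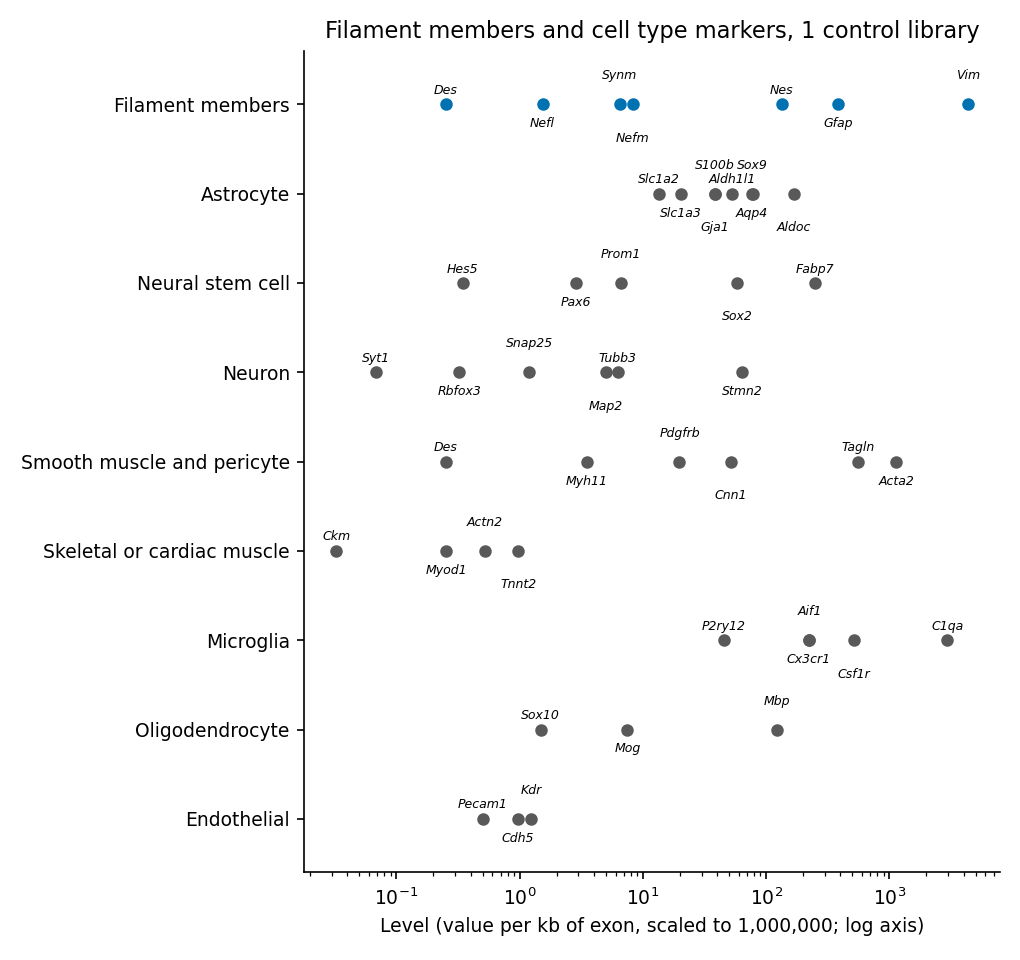
Level of the 7 cytoplasmic filament members (blue) and of cell type markers (grey) in the control library, on a log axis as value per kb of exon scaled to 1000000; Myog, listed at 0, is not drawn. Levels use the exon union, with which Gfap (385) lies above all 8 astrocyte markers and Des (0.251) is the lowest of the smooth muscle and pericyte markers. With the shortest coding transcripts Gja1 and Aqp4 lie above Gfap, on transcripts far shorter than their RefSeq-linked mRNAs.

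Lamins differed among themselves. A-type lamins (lamin A and lamin C, splice forms of Lmna) are abundant in stiff and differentiated tissues, while B-type lamins (Lmnb1, Lmnb2) are made by almost all cells. Lmna had a value of 12365 (rank 277) and a level of 200, above 95.7% of detected genes. Lmnb1 had a value of 1698 and a level of 54.1 (above 84.5%), and Lmnb2 had a value of 533 and a level of 11.7 (above 54.4%). The order was therefore Lmna, Lmnb1, Lmnb2, on the scale of values and on that of levels.

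Lmna made up 75.2% of the summed level of the lamins, Lmnb1 20.4% and Lmnb2 4.42%. The ratio of Lmna to Lmnb1 was 3.69 in level, 7.28 in value and 6.56 with RefSeq-linked lengths. It was 26.4 with the shortest coding transcripts, where the Lmna transcript is partial. Its size therefore depended on the exon length assumed for Lmna. Lmna lies on chromosome 3 (88480147 to 88509956, minus strand) and Lmnb2 on chromosome 10 (80901203 to 80918245, minus strand), while Lmnb1 lies on chromosome 18. Values per gene do not separate lamin A from lamin C. The study used loss of lamin B1 protein as a mark of senescence, and the Lmnb1 value is its mRNA in control glia.

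Genes of dividing cells were well detected in the same library. Mki67 had a value of 6120, Top2a 4268 and Cdk1 2048, at levels of 57.4, 44.7 and 39.2. The level of Lmnb1 (54.1) lay within this range, but its value (1698) lay below those of the 3 genes, as did its level with the shortest coding transcripts (15.2). The part of dividing cells in the lamin values was not tested.

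Partners of the lamina were widely detected. The list held 18 genes for lamin processing, inner nuclear membrane proteins and the LINC complex, which couples the nucleus to the cytoskeleton. Of these, 17 (94.4%) had a value of 10 or more, against 67.2% of all rows, and their median level was 13.9. The highest were Banf1 at 64.7, a chromatin-binding protein that bridges DNA to the envelope, Fnta at 55.8, the shared subunit of farnesyltransferase, and Tor1aip1 at 54.2, a lamin-binding membrane protein. Fnta was the highest instead with the longest transcript (67.0 against 59.1 for Banf1) and with RefSeq-linked lengths (59.6 against 52.5). With the shortest coding transcripts the highest was Sun2, at 168, and by value Tor1aip1, at 3106. That Sun2 transcript is far shorter than the RefSeq-linked mRNA of 3.80 kb. The lowest by exon union was Syne4 with a value of 7. None of the 18 partners reached the level of Lmna under any of the 4 definitions of length.

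Further partners were named after their values were seen. Zmpste24, the protease that cuts prelamin A, had a level of 17.8, and the farnesyltransferase subunit Fntb 5.90. Emd (emerin), which binds lamin A, stood at 36.0, and Lbr, the receptor that binds B-type lamins, at 3.67. Sun2 (40.0) lay above Sun1 (13.2), the other LINC protein of the inner membrane.

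Of 15 genes for linkers, chaperones and kinases of filaments, all had a value of 10 or more, against 67.2% of all rows. Their median level was 20.8. The highest were the small heat shock proteins Cryab at 422 and Hspb1 at 265, which bind filament subunits and keep them from aggregating. Plec (plectin), which ties filaments to each other and to actin, followed at 86.1 with a value of 16527. The lowest was Dsp (desmoplakin), the filament anchor of desmosomes, with a value of 23. With the shortest coding transcripts Plec (1656) and Dst (366) were the highest instead. Those transcripts are far shorter than the RefSeq-linked mRNAs, of 15.5 and 23.3 kb. By value Plec, Macf1 (12022) and Dst (11148) lay above Cryab (6618) and Hspb1 (2894). Cryab lay above Gfap (385) with the exon union and the shortest coding transcript, but below it by value (6618 against 17222), with the longest transcript (430 against 472) and with RefSeq-linked lengths (383 against 420). Outside the naming rule, the plakins Macf1 (36.1) and Dst (25.6), which link filaments to other parts of the cytoskeleton, were picked out after their values were seen.

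**Figure D3:**
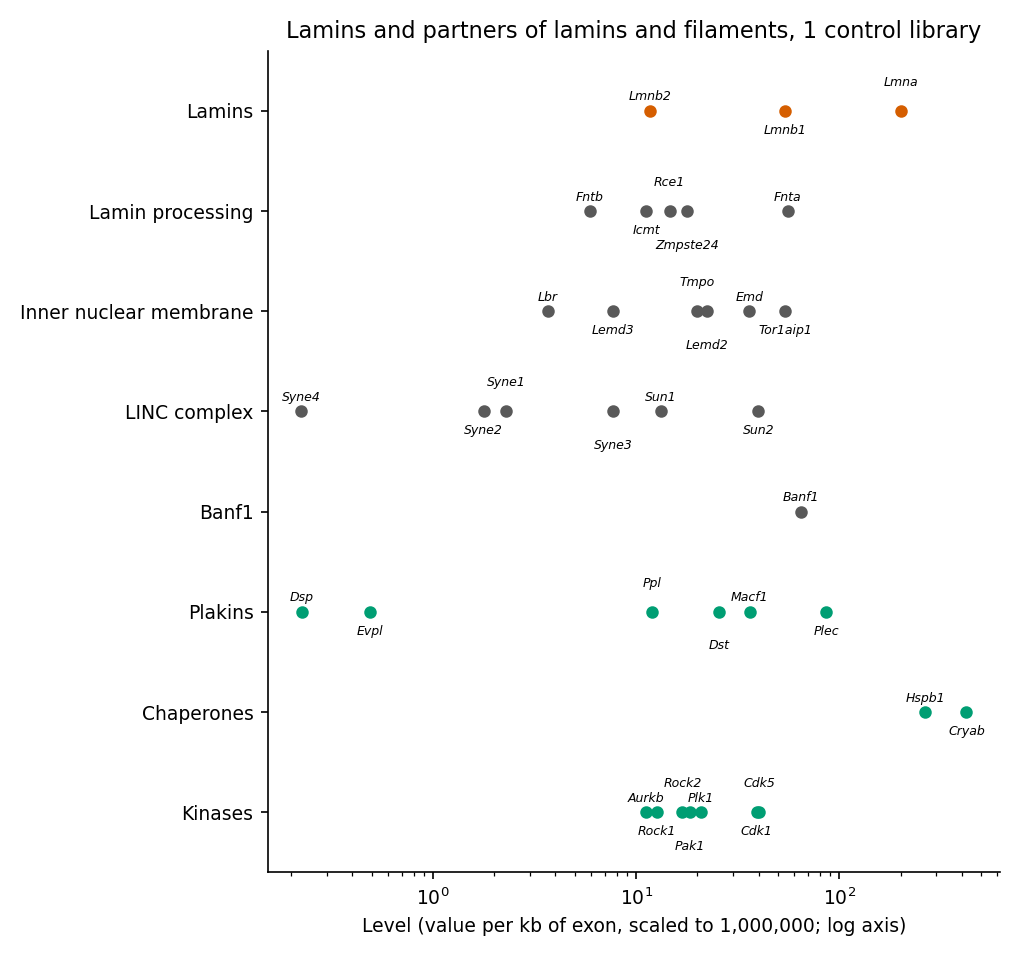
Level of the lamins (orange), lamin partners (grey) and partners of cytoplasmic filaments (green) in the control library, on a log axis as value per kb of exon scaled to 1000000. Lmna (200) lies above all 18 lamin partners. Among filament partners Cryab (422) and Hspb1 (265) lie above the rest with the exon union drawn here. That order changes by value, and with the shortest coding transcripts, which for Plec and Dst are far shorter than the RefSeq-linked mRNAs.

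The remaining genes of the family were low. Sync, which encodes the muscle and neural filament protein syncoilin, was the highest of them with a value of 305 and a level of 10.1. The lens filament genes Bfsp2 and Bfsp1 had values of 53 and 18, and Prph, a filament gene of peripheral neurons, also had 18. Of 52 keratin genes, which build the filaments of epithelia, 27 were listed at 0, 21 had values from 1 to 9 and 4 were detected. The detected share of keratins was 7.69%, against 67.2% of all rows. The highest keratins by level were Krt10 (value 67), Krt19 (45) and Krt13 (22). The 57 of these 58 genes with a known length held 0.472% of the summed level of the family, and the 10 members held the rest.

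**Figure D4:**
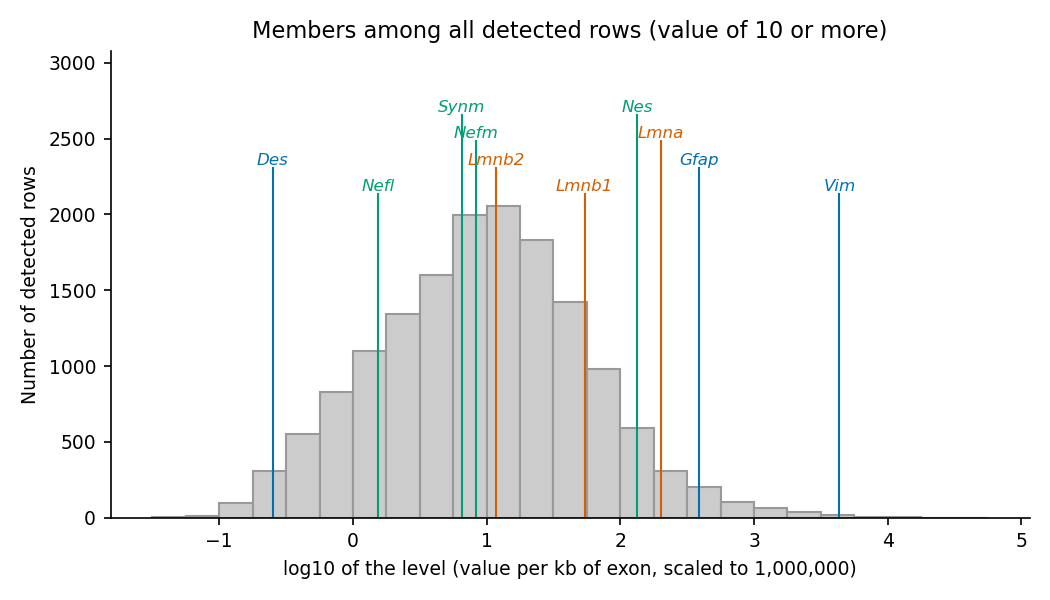
Histogram of the log10 level of all detected rows with a known length (grey), with a vertical line for each of the 10 members coloured by class. Vim, Gfap, Lmna and Nes stand in the upper tail, Lmnb2, Nefm and Synm near the peak, and Nefl and Des on the low side.

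The members were spread over the whole range of detected genes. Vim, Gfap, Lmna and Nes lay above 93.5% or more of detected genes, and Lmnb1 above 84.5%. Lmnb2, Nefm and Synm lay close together, at levels of 11.7, 8.29 and 6.50. The ratios of neighbours in this middle range were 1.42 for Lmnb2 to Nefm and 1.28 for Nefm to Synm. By value Synm (546) came before Lmnb2 (533) and Nefm (508), so their order depended on gene length, and no replicate spread is known against which to set these differences. Nefl and Des followed at 1.54 and 0.251.

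The level of a gene also depends on which transcript length is assumed. Because levels are scaled to a fixed sum, the lengths assumed for all other genes matter too. The 4 definitions were compared to show this dependence, and their range is no measure of replicate error. Vim ranged from 4355 to 9700 and Lmna from 200 to 401, upward from the exon union. The upper values rest on the partial transcripts of both genes. Gfap ranged from 169 to 472, on either side of it. Nes ranged from 39.0 to 134 and Lmnb1 from 15.2 to 54.1, downward from it. The fall of Lmnb1 came from the scaling, since its only coding transcript (2.84 kb) is shorter than its exon union (2.96 kb). Likewise Nefl, with 1 annotated transcript of 3.38 kb, ranged from 0.414 to 1.54 although its own length stayed the same. Ratios of genes under the same definition are free of this scaling. The ranges of Gfap and Lmna overlap. Their ratio of 1.93 fell below 1 only with the shortest coding transcript, which is partial for Lmna. It was 2.08 with the longest transcript, 1.66 with RefSeq-linked lengths and 1.39 in value. Vim stayed above all other members under each definition and Des below them.

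The cytoplasmic members were set beside the other cytoskeletal families. Their summed level was 4891, of which Vim held 89.0%, Gfap 7.88% and Nes 2.75%. It was 18.4 times the summed level of the lamins, which was 266. The 6 actin genes summed to 7779 and the 11 tubulin genes to 3638.

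One gene dominated the filaments, whereas actins and tubulins rested on several genes. Vim (4355) lay above Actb (3748), the cytoplasmic β-actin, by a ratio of 1.16, which was 1.80 with RefSeq-linked lengths. Actg1 (2872) and Acta2 (1139) followed among the actins, while Acta1, Actg2 and Actc1 stood at 12.2, 6.43 and 1.40. Among tubulins the highest were Tuba1b (750), Tuba1a (728) and Tubb2a (601), and the lowest was Tubb3 (6.27). With the shortest coding transcripts Tubb5 (333) was the highest, on a transcript much shorter than its RefSeq-linked mRNA of 2.65 kb.

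Reads of several actin and tubulin genes are less well separated than those of most members. Among members Nefl had the highest share of such words, at 31.8%, but there they lie in the opposite-strand overlap with the extended Nefm transcript. Of the 50-base words of the mRNA, 56.7% for Actg1, 75.5% for Tuba1a and 83.1% for Tuba1b also occurred in other annotated genes. Values of single genes with such high shares are uncertain for that reason. The share was only 0.115% for Tubb5 and 0.184% for Tubb4a, and no shared word was found for Tubb3, Tubb6, Actc1 or Actg2. The treatment of reads with several matches was not given in the sources used here. The ratio of the summed filament level to that of the tubulins was 1.34, and 2.54 with RefSeq-linked lengths.

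**Figure D5:**
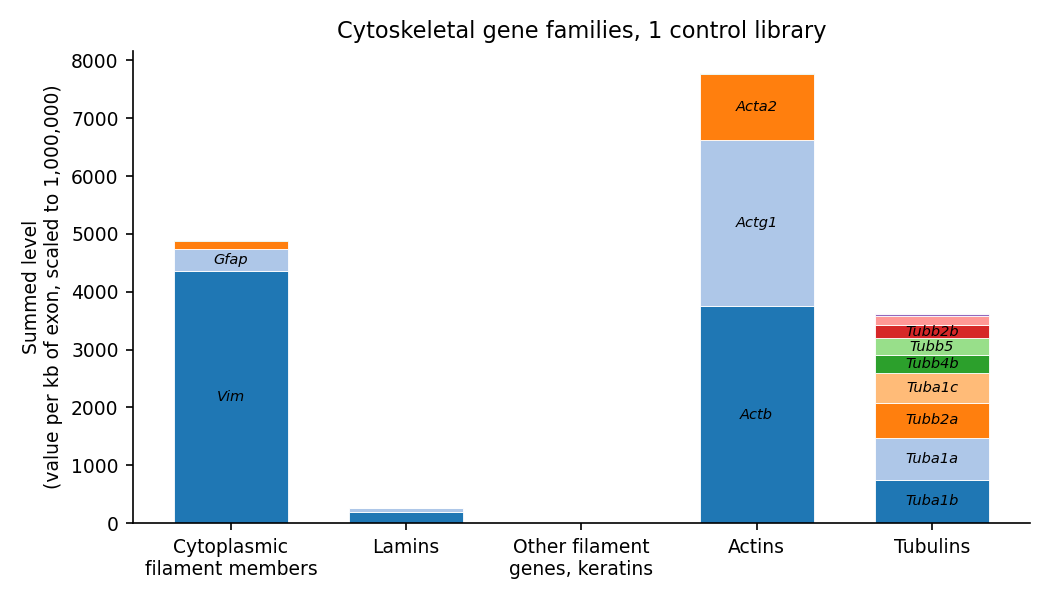
Summed level of the 7 cytoplasmic filament members, the 3 lamins, 57 other filament genes including keratins, 6 actins and 11 tubulins in the control library, stacked by gene from 0, as value per kb of exon scaled to 1000000. Vim makes up 89.0% of the first bar, while actins (7779) and tubulins (3638) are spread over several genes.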

How the data were processed

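RNA-seq was carried out on 1 control library of mouse VM-glia. According to the study's methods, reads were trimmed for quality, mapped to GRCm38/mm10 with STAR, and counted on exons of NCBI RefSeq genes with HTSeq-count, whereas the labels name TopHat and edgeR without a role. The values deposited by the authors are described as normalised read counts and were handled as a score, not as raw counts. They are whole numbers with an unstated scaling. Sequencing depth is therefore unknown, and no counting interval or detection floor was computed; strand setting and versions were not given in the sources used here.

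Each value was divided by the union of exons in GENCODE release M21 (GRCm38), which matched 22900 of 23282 rows (98.4%) by symbol or by a RefSeq synonym, and scaled to a sum of 1000000. This is not the annotation the authors counted on. Genes with a value of at least 10 counted as detected. Of gene lists longer than 8, the 3 highest genes and the lowest are named, with others where the text says so. The members and lists were chosen with earlier results of these data known. Lengths, totals and detection minima were varied. Some items are not reported here. The scaling was tested on simulated data. Python 3.11.15, numpy 2.4.6, pandas 2.3.3 and matplotlib 3.10.9 were used.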

Additional observations from a re-analysis of the deposited data

How the results depend on the processing

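A value was taken as moved when it changed by more than 1.5 times. Of 192 recomputed values, 141 did not move, 48 moved and 3 changed the order of a pair of genes. The 141 include values that had little room to move. Leaving Rn45s or the 10 highest rows out of the total rescaled all members by the same factor, below 1.5. High percentages, such as the 89.0% of Vim among the cytoplasmic members, cannot rise by 1.5 times. The tally is therefore no measure of how stable the results are. The alternative with RefSeq-linked transcripts was added after the data were seen. It and the longest annotated transcript kept the order of the 10 members. With the shortest coding transcript, partial for Lmna, the Gfap to Lmna ratio became 0.42. The Nefm to Synm ratio became 0.75 with that definition and 0.93 without division by length. The shortest transcripts, partial for Vim, also gave a summed level of the cytoplasmic members of 9917 and a ratio to tubulins of 7.41. RefSeq-linked transcripts gave 0.981 for the ratio to actins and 2.54 for that to tubulins. Detected keratins numbered 25 at a minimum of 1, 15 at 3 and 0 at 100, and of the 6 other filament genes outside keratins 1 reached 100. The causes were not tested. No paired analysis was possible because there was 1 library.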
